A study of Mus musculus with 9 samples.

Results

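The mRNAs described here encode motor proteins that move cargo along microtubules: the kinesin heavy chains Kif1a, Kif1b, Kif3c, Kif5a, Kif5b, Kif5c, Kif21a and Kif21b, the heavy chain of cytoplasmic dynein Dync1h1, and Dctn1, the largest subunit of dynactin. They were chosen by gene symbol, and all 10 were found among the 11618 genes that had at least 1 transcript tag in the study. HITS-CLIP was used to find which mRNAs of mouse brain polyribosomes are in contact with FMRP, whose loss causes fragile X syndrome. UV light crosslinks the protein to RNA in place, an antibody pulls it down after a mild RNase digestion, and each RNA piece that is cloned and sequenced is a tag. Each library came from pooled FVB littermates, from cortex and cerebellum dissected free of white matter and kept in cycloheximide, which holds ribosomes on their mRNA. The neuronal Hu proteins, RNA-binding proteins that are also found on polyribosomes, served as another target. In all there were 7 FMRP and 2 Hu libraries.

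The Protocol 1 libraries were prepared from male mice with 1% SDS as the dissociating detergent and read on the 454 platform. With the mixed monoclonal antibodies 7G1-1 and 2F5 there were 3 such libraries, from mice at postnatal day 14 (P14), P15 and P25. With the polyclonal antibody ab17722 there were 2, from P14 and P25. The Protocol 2 libraries used 2% SDS and Illumina sequencing: the P11 and the P13 lysate each gave 1 library with ab17722 and 1 with human anti-Hu antisera. The tag lists analysed are of wild-type tissue. Fmr1-null littermates are named in the study text as a specificity control in most experiments, and no library of them was analysed here. Within a group the libraries are of different ages and each pools several animals, so the p-values below measure library-to-library spread only. In polyribosomes of whole tissue, fewer cells of a type and less RNA per cell cannot be told apart.

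Kinesins and dynein turn ATP into steps along microtubules. Most kinesins walk towards the plus end, which in axons points away from the cell body, while cytoplasmic dynein walks to the minus end and needs dynactin to bind cargo and to move far. In neurons, Kif1a and Kif1b carry synaptic vesicle precursors, and Kif1b also carries mitochondria. Kif5a, Kif5b and Kif5c are the heavy chains of conventional kinesin, which carries mitochondria, neurofilaments and RNA granules. Kif3c pairs with Kif3a in a kinesin-2 motor, and Kif21a and Kif21b belong to a family that also restrains microtubule growth.

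Depth differed by platform, with 4397 to 7713 tags on transcripts per 454 library and 25873 to 49847 per Illumina library. Levels are given as CPM, the tags of a gene scaled to a library total of 1000000. A count of 0 allows up to 3 tags, or 682 CPM at the lowest depth and 60.2 CPM at the highest. The 10 motor mRNAs took 1.52% to 1.95% of all transcript tags in the 454 libraries. In the FMRP Illumina libraries they took 2.36% (95% Wilson interval 2.18% to 2.54%) at P11 and 2.26% (2.13% to 2.40%) at P13. In the Hu libraries from the same lysates the share was 0.452% (0.377% to 0.542%) and 0.461% (0.406% to 0.525%). The motors therefore held a larger share of the tags with FMRP than with Hu in both lysates. All 12 neuronal marker genes looked up had tags, and summed to 3434 to 6582 CPM over the FMRP libraries. Of 5 microglial and 4 endothelial markers, 1 and 2 had any tag, and Cx3cr1, C1qa, C1qb, Aif1, Cldn5 and Tek had none.

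Kif1a had more FMRP tags than any other motor of the set. The authors counted 25, 63 and 37 Kif1a tags in the monoclonal P14, P15 and P25 libraries, 40 and 32 in the polyclonal P14 and P25 libraries, and 185 and 183 in the polyclonal P11 and P13 libraries, 565 in all. Per library this was 5898 ± 1535 CPM (SD, n = 7), and no library lay below 4214 CPM. Divided by the 8311 nt of its transcript, the density was 710 ± 185 CPM per kb. The gene lies at chr1:94912033-94998442 (mm9). Its closest relative, Kif1b (chr4:148550430-148681807, mm9), had 10, 15 and 26 monoclonal tags, 23 and 24 polyclonal 454 tags, and 90 and 120 Illumina tags. That made 3015 ± 730 CPM and 180 ± 43.5 CPM per kb, again present in every library. The table's length for Kif1b, 16777 nt, combines several transcripts, while the last tag placed on its transcript ended at 10079 nt, so its density is understated by an unknown amount.

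The conventional kinesin heavy chains differed from one another. Kif5a (chr10:126662755-126700127, mm9), the isoform found mainly in neurons, had 9, 14 and 30 monoclonal tags, 18 and 15 polyclonal 454 tags, and 55 and 219 Illumina tags, a mean of 2838 ± 1125 CPM or 422 ± 167 CPM per kb. Its P13 value of 5043 CPM stood above all 6 others, which ran from 1897 to 3595 CPM. Kif5c (chr2:49474834-49630298, mm9), also neuronal, had 9, 7 and 6 monoclonal, 5 and 6 polyclonal 454, and 47 and 99 Illumina tags, a mean of 1365 ± 659 CPM or 200 ± 96.4 CPM per kb. Kif5b, the isoform that most tissues express, had 0, 0 and 2 monoclonal, 0 and 2 polyclonal 454, and 13 and 8 Illumina tags, a mean of 182 ± 199 CPM or 34.4 ± 37.5 CPM per kb. Kif5b was thus detected in 4 of the 7 libraries. Its P13 level of 184 CPM would have been under 3 tags in every 454 library.

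Dync1h1 (chr12:111839605-111905154, mm9) had 5, 12 and 6 monoclonal, 3 and 4 polyclonal 454, and 82 and 110 Illumina tags. Its mean was 1477 ± 1050 CPM, but with a transcript of 14398 nt only 103 ± 72.9 CPM per kb. Dctn1 (chr6:83129583-83150112, mm9) had 4, 8 and 9 monoclonal, 6 and 5 polyclonal 454, and 7 and 15 Illumina tags, a mean of 771 ± 329 CPM or 172 ± 73.3 CPM per kb. In the FMRP Illumina libraries, which also differ from the 454 ones in protocol and age, Dync1h1 was at 3225 and 2533 CPM. Dctn1 was at 275 and 345 CPM there. Between the polyclonal libraries of the protocols, Dync1h1 passed as higher with Illumina (log2 2.57, edgeR adjusted p = 0.0198), from 3 and 4 tags on 454. DESeq2 did not make that call. Dctn1 did not pass (-1.24, edgeR adjusted p = 0.137).

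The remaining kinesins had fewer tags. Kif21b (chr1:138027978-138074591, mm9) had 10, 9 and 6 monoclonal, 14 and 4 polyclonal 454, and 50 and 13 Illumina tags, a mean of 1306 ± 770 CPM or 140 ± 82.8 CPM per kb. Kif3c (chr12:3365132-3406494, mm9) had 5, 3 and 2, then 2 and 1, then 9 and 21 tags in the same order, 63.8 ± 46.3 CPM per kb. Kif21a (chr15:90763707-90880379, mm9) had 1, 1 and 4, then 2 and 0, then 7 and 21 tags, 41.7 ± 27.1 CPM per kb. Counts this low fix Kif3c, Kif21a and Kif5b only roughly.

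In order of mean density the motors ran Kif1a, Kif5a, Kif5c, Kif1b, Dctn1, Kif21b, Dync1h1, Kif3c, Kif21a and Kif5b. Among neighbours in that order, only Kif5a over Kif5c held in 7 of 7 libraries. Kif1a lay above Kif5a in 5 of 7, and the remaining neighbours kept their order in 4 or 5 of 7, so the spread between libraries does not separate those neighbours. The place of Kif1b also rests on its combined length, which understates its density, so Kif1b could stand higher in the order.

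**Figure D1:**
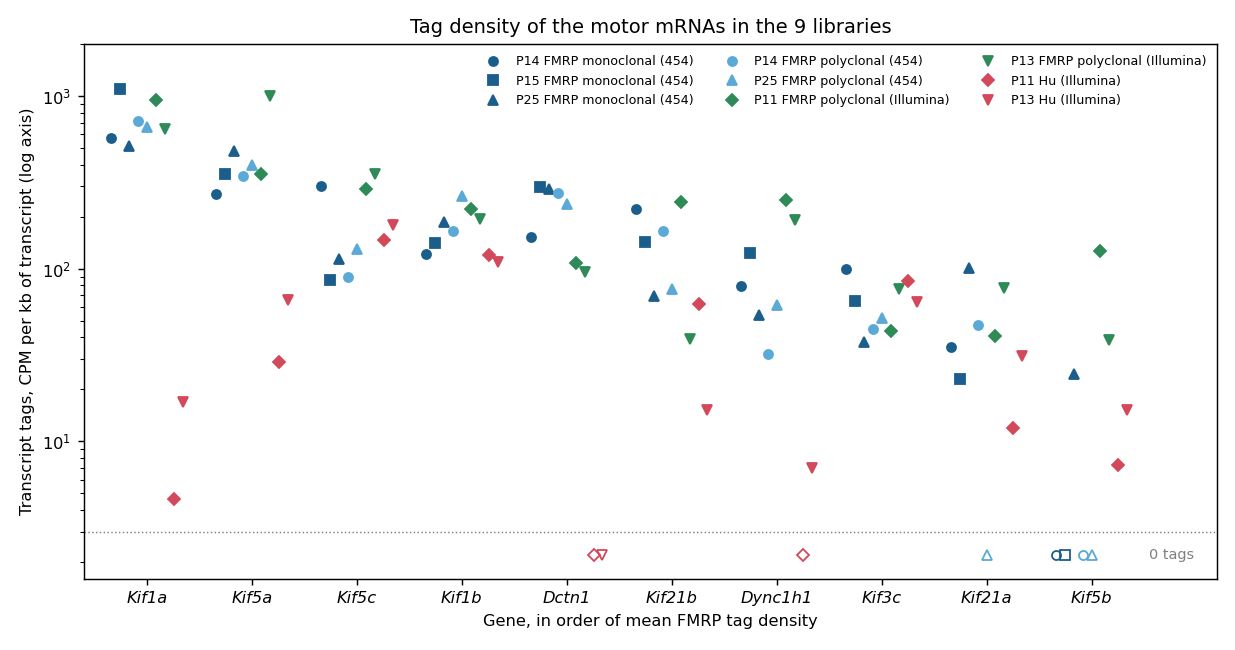
Transcript tags per library (CPM per kb of transcript, log axis) for each motor gene, in order of mean FMRP tag density; filled symbols are single libraries and open symbols on the lower strip are libraries with 0 tags. Kif1a lies highest in most FMRP libraries, and the Hu symbols of Kif1a, Dync1h1 and Dctn1 lie far below their FMRP symbols, while those of Kif3c lie among them.

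Related motors were compared within libraries, as the log2 ratio of tags per kb with 0.5 tags added, by an exact two-sided sign-flip permutation test over the 7 FMRP libraries. The smallest p this design allows is 0.0156, and p-values were adjusted over 6 pairs. Kif1a lay above Kif1b by 1.96 ± 0.57 (SD, n = 7) on the log2 scale, higher in 7 of 7 libraries (exact permutation p = 0.0156, adjusted 0.0234). This rests on the combined length of Kif1b: with its length taken to the last tag, 10079 nt, an alternative chosen after the data were seen, the difference was 1.23 ± 0.57 with the same exact permutation p. Kif5a lay above Kif5b by 3.56 ± 1.19 and Kif5c above Kif5b by 2.45 ± 1.25, each in 7 of 7 libraries with the same exact permutation p and adjusted p. Because Kif5b had 0 tags in 3 libraries, the size of these ratios depends on the tags added. Kif5a lay above Kif5c by 1.10 ± 0.79 in 7 of 7 libraries (exact permutation p = 0.0156, adjusted 0.0234). With coding tags per kb of coding sequence that difference was 0.92 and no longer passed (exact permutation, adjusted p = 0.075).

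Kif21a and Kif21b differed by -1.44 ± 1.45 (n = 7), Kif21a being lower in all but 1 library, and did not pass after adjustment (exact permutation p = 0.0469, adjusted 0.0563). The exception was the P13 library, and without it the difference was -1.88 (exact permutation, adjusted p = 0.0375). With the only library of opposite sign removed, that p is the smallest the test allows, so this pass adds no support. Dync1h1 and Dctn1 differed by -0.91 ± 1.7, with Dync1h1 higher in 2 of 7 libraries, the Illumina ones (exact permutation p = 0.203, adjusted 0.203).

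The tag densities above were not adjusted for how much of each mRNA was present. The authors' table carries an exon array intensity per gene from another measurement, and 2275 genes with at least 10 FMRP tags could be ranked on both. By tag density Kif1a stood at the 99.9th percentile of these genes, Kif5a at the 99.3rd, Kif5c at the 95.8th and Kif1b at the 94.7th. Dctn1 stood at the 94.2nd, Kif21b at the 92.0th and Dync1h1 at the 86.2nd, with Kif3c, Kif21a and Kif5b at the 72.1st, 54.6th and 44.5th. The order changed once density was divided by array intensity.

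Kif21b and Dctn1, with the lowest array intensities of the set (337 and 445), stood at the 93.1st and 92.1st percentile of that ratio. Kif5a (intensity 1532) stood at the 87.1st, Kif1a (2921) at the 84.4th and Dync1h1 (494) at the 81.5th. Kif1b, with the highest intensity of the set at 3476, fell to the 32.8th percentile, a rank that its combined length understates. Kif5c (2806) stood at the 44.5th, Kif5b (486) at the 44.3rd, Kif3c (1355) at the 30.4th and Kif21a (1247) at the 20.6th. The median of the ratio was 139 CPM per kb per 1000 units of intensity for the motors and 81.2 for all 2275 genes. Array probes differ in response, so these ranks describe and were not tested.

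FMRP tags on the motors lay mostly in coding sequence, by the authors' coding counts. Of 565 Kif1a tags, 500 were coding, 88.5% (95% Wilson interval 85.6% to 90.9%), where the coding sequence is 61.9% of the transcript. Of 308 Kif1b tags, 261 were coding, 84.7% (80.3% to 88.3%) against 41.6% of the length. All 54 Dctn1 tags were coding (93.4% to 100%) against 85.6% of the length. In these genes the coding share lay above the length share in 7 of 7 libraries.

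For Dync1h1 219 of 222 tags were coding, 98.6% (96.1% to 99.5%), but the coding sequence is 96.8% of that transcript. Kif21b had 80.2% coding tags (71.6% to 86.7%) against 52.4% of the length, and Kif3c 69.8% (54.9% to 81.4%) against 34.9%, each above in 7 of 7 libraries. Kif21a had 91.7% (78.2% to 97.1%) against 78.0%, above in the 6 libraries with tags. Kif5b had 80% (60.9% to 91.1%) against 54.8%, above in 3 of 4.

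Kif5a and Kif5c had the lowest coding shares of the set. Kif5a had 194 coding and 166 noncoding tags, 53.9% coding (48.7% to 59.0%) against 45.9% of the length, above in 7 of 7 libraries. Kif5c had 101 coding and 78 noncoding tags, 56.4% (49.1% to 63.5%) against 42.0%, above in 6 of 7. Over the set as a whole the coding share was 72.5% to 93.2% per library, beside 69.7% to 86.7% for all genes of the same libraries. The motors lay above all genes in 4 libraries and below in 3.

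**Figure D2:**
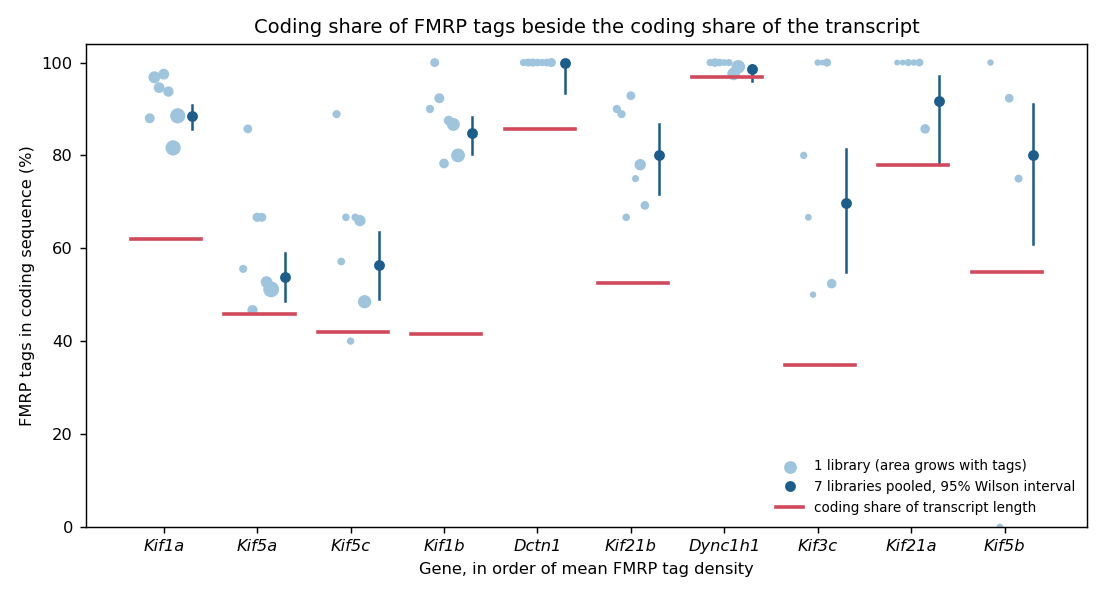
Share of FMRP tags in coding sequence (percent) per motor gene: pale points are single libraries, their area growing with the tag count, dark points with bars are the 7 libraries pooled with 95% Wilson intervals, and red lines mark the share of the transcript length that is coding. Pooled points lie well above the line for Kif1a and Kif1b (88.5% and 84.7%) and close to it for Kif5a (53.9% against 45.9%) and Dync1h1.

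Along the transcript, FMRP tags were spread over most of the coding region and gathered in places. In Kif5a the densest 100-nt window, 378 to 477 nt from the 5′ end, held 50 of 441 transcript tags over 6 libraries, 36 of them from the P13 library. In Kif1a the densest window (663 to 762 nt) held 30 of 633 tags, 19 of them from P13, and in Kif1b (844 to 943 nt) 19 of 336 tags from 7 libraries. In Kif3c 9 of 43 tags lay between 1144 and 1243 nt, from 5 libraries. All 4 windows lay within the coding length, and no Hu tag fell in any of them. They were picked by their FMRP tags. The first of 3 equal parts of these transcripts held only 0% to 8.33% of a gene's Hu tags. The absence of Hu tags is therefore no trait of these windows alone.

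On 454 the median Dync1h1 tag was at 4343 nt, and 51.6% of 31 tags lay in the 5′-most part of the transcript (the first of 3 equal parts). Of these 31 tags, 12 fell in a single 250-nt bin that starts at 2500 nt. With that bin left aside, a step chosen after the values were seen, 4 of 19 tags (21.1%, 95% Wilson interval 8.51% to 43.3%) lay in the first part and the median was at 7534 nt. On Illumina the median was at 8911 nt at P11 and 8367 nt at P13, with 25% and 26.2% of tags in the first part. In Kif1a the medians lay closer together, at 2674 nt on 454, 3190 nt at P11 and 2962 nt at P13.

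The P11 and P13 lysates were each divided between FMRP and Hu immunoprecipitation, which allowed the motors to be compared between proteins on the same material. Kif1a, Dync1h1, Dctn1 and Kif5a had far more FMRP than Hu tags. Kif1a had 211 and 236 FMRP tags (P11, P13) against 1 and 7 Hu tags, a log2 difference of 6.25 (SE 0.75, edgeR adjusted p = 0.00250). Tag totals scaled by the TMM sizes of that fit, as for the ratios that follow, gave a ratio of 73.0 (95% counting interval 36.7 to 170), and scaled by library totals 59.7. Dync1h1 had 96 and 122 FMRP tags against 0 and 5 Hu tags, a log2 difference of 5.85 (SE 0.89, edgeR adjusted p = 0.00250) and a ratio of 56.9 (24.0 to 177). Neither gene's FMRP and Hu values came near each other in either lysate.

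Dctn1 had 13 and 19 FMRP tags and no Hu tag. Against the limit of 3 tags over both Hu libraries it was at least 13.9-fold higher with FMRP by TMM sizes and at least 11.4-fold higher by library totals (edgeR adjusted p = 0.00250). The 95% counting interval of its TMM-scaled ratio, which also takes in the error of the FMRP count, starts at 10.7. Kif5a had 64 and 298 FMRP tags against 5 and 22 Hu tags, a log2 difference of 4.12 (SE 0.81, edgeR adjusted p = 0.00341) and a ratio of 17.5 (11.8 to 26.9). The P13 FMRP library raised this value: without it the log2 difference was 3.17, and without the P11 FMRP library 5.08, still past the threshold both times. Leaving out the P13 Hu library, which holds all 5 Hu tags of Dync1h1, raised that gene to 9.78, and leaving out the P11 Hu library gave 4.94. Kif1a ranged from 5.51 without the P11 Hu library to 7.60 without the P13 one.

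Kif21b, Kif5c and Kif1b had higher FMRP than Hu values without passing the test. Kif21b had 61 and 16 FMRP tags against 15 and 7 Hu tags, a log2 difference of 2.11 (SE 0.94, edgeR adjusted p = 0.0749). Its P13 FMRP value of 363 CPM lay below its P11 Hu value of 580 CPM, so the groups overlapped although FMRP exceeded Hu within each lysate. The value of Kif21b rests on the P11 FMRP library: without it the log2 difference was 0.88 (edgeR adjusted p = 0.470), and without the P13 FMRP library 3.14 (edgeR adjusted p = 0.000375). Kif21b passed with the lysate as a block (1.95, edgeR adjusted p = 0.0214), with DESeq2 (2.62), with DESeq2 size factors in edgeR (2.65), with library totals (1.94) and with genomic tags (2.34). Kif5c had 53 and 107 against 26 and 61 tags (1.27, SE 0.56, edgeR adjusted p = 0.0747), and Kif1b 100 and 144 against 52 and 92 (1.13, SE 0.52, edgeR adjusted p = 0.0855). In both of these genes each FMRP value exceeded each Hu value. With DESeq2 size factors as the scale both passed, at 1.61 and 1.51 (edgeR adjusted p = 0.0268 and 0.0473). With 7 FMRP libraries and a platform term both turned, to -0.63 and -0.70. That fit still draws the protein difference from the Illumina libraries, with other genes kept and other scaling factors. Kif5c also passed without the P11 FMRP library, at 1.87 (edgeR adjusted p = 0.0262).

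Kif3c had 8 and 23 FMRP tags against 15 and 22 Hu tags, with a log2 difference of 0.04 (SE 0.68, edgeR adjusted p = 0.966) that turned to -0.26 with library totals as the scale, and its values overlapped. Kif5b and Kif21a had too few tags to enter the main fit. Where they could be fitted, without the filter or with 1 library left out, both had higher values with FMRP. Without the filter neither passed (edgeR adjusted p = 0.140 for Kif5b and 0.418 for Kif21a). With 1 library left out both could enter through their FMRP tags alone, so that direction adds no support. Kif5b ran from log2 2.29 to 3.65 and Kif21a from 1.03 to 2.60. Kif5b had 18 and 9 FMRP tags against 1 and 4 Hu tags, a ratio of 7.05 (counting interval 2.68 to 23.5). Kif21a had 7 and 22 against 2 and 10, a ratio of 3.16 (1.56 to 6.79). These intervals cover counting error only.

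Across 1015 genes tested, 33.5% were higher with FMRP and 26.7% higher with Hu, and the median log2 difference was -0.17 (0.21 with DESeq2 size factors and -0.43 with library totals as the scale). Of the 8 motors tested 4 were higher with FMRP and 0 with Hu, and the median of the 8 was 3.12. A gene could enter the test through its tags with either protein alone. The 4 called motors had too few Hu tags to meet the filter without their FMRP tags. That count and median therefore cover motors partly selected by their FMRP tags. Both FMRP values exceeded both Hu values in 6 of these 8, and in 39.3% of all genes tested. Both lay below both Hu values in 0 of the 8, and in 47.7% of all genes. Sums of cell type markers were also read, but the 7 FMRP libraries span both platforms, both protocols and other ages than the Hu libraries. Differences in these ranges are therefore not between the proteins alone. Of the oligodendrocyte and myelin markers, 7 of 7 had tags. They summed to 336 to 2677 CPM over the 7 FMRP libraries and 7034 to 16049 CPM in the Hu libraries. The 6 astrocyte markers, all with tags, summed to 178 to 1717 CPM with FMRP and 116 to 120 CPM with Hu. The 12 neuronal markers summed to 7189 to 11896 CPM with Hu, above their range with FMRP, and the 4 markers of cerebellar granule and Purkinje cells to 612 to 4855 CPM with FMRP and 271 to 1063 CPM with Hu. Their part in the motor results was not tested.

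**Figure D3:**
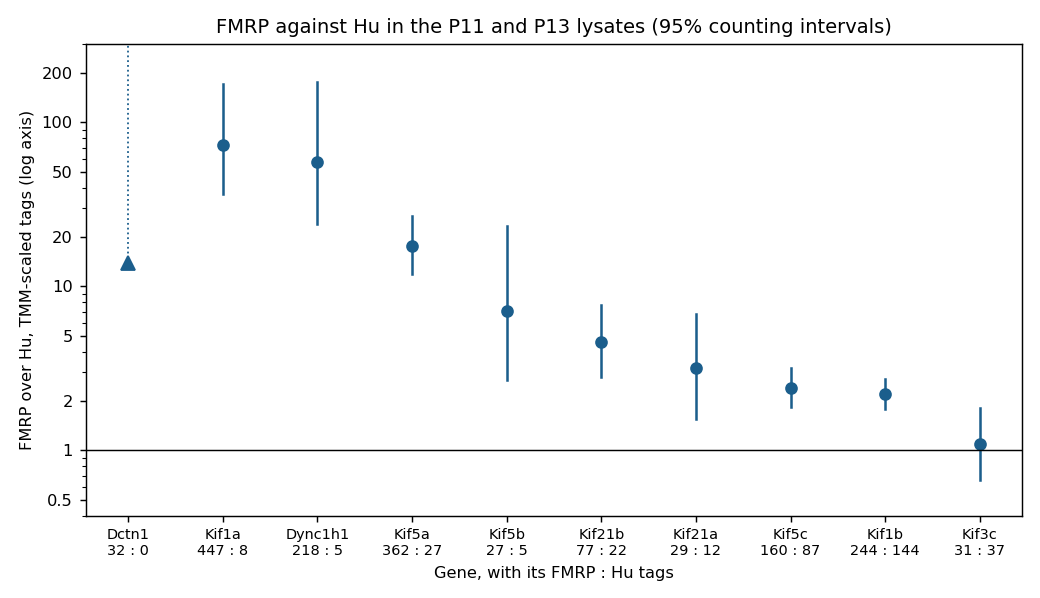
Ratio of TMM-scaled FMRP to Hu tags in the P11 and P13 lysates together (log axis), with the tag totals under each gene; bars are 95% counting intervals, and the triangle of Dctn1 is its ratio against 3 tags, since it had no Hu tag. Kif1a (73.0) and Dync1h1 (56.9) lie highest of the genes with Hu tags, Kif5c and Kif1b just above 2, and the interval of Kif3c crosses 1.

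The Hu tags of a motor lay farther along its transcript than its FMRP tags in 8 of the 9 motors that had Hu tags. The median FMRP tag in Kif1a lay 3013 nt from the 5′ end and the median of its 8 Hu tags at 6595 nt. The medians were 3960 and 8366 nt in Kif1b, 2698 and 5173 nt in Kif5a, 2859 and 4754 nt in Kif5c, 3839 and 5854 nt in Kif21b, and 1596 and 5453 nt in Kif3c. They were 2429 and 4070 nt in Kif5b and 3082 and 5960 nt in Kif21a. The exception was Dync1h1, whose 5 Hu tags had a median of 8099 nt beside 8605 nt for FMRP.

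A share of tags whose middle lay past the coding length was taken as a rough measure of the 3′ end. Where the coding length is that of the transcript carrying the tags, that region holds the 3′ UTR and, at its start, as many coding bases as the 5′ UTR is long. It then overstates the noncoding share. The lengths are combined over all transcripts of a gene, so where the combined coding length is the longer, the measure can understate that share instead. In Dctn1, 25% of its 32 Illumina tags in the transcript lists lay past it, while in the gene table, which holds another set of tags, all 54 Dctn1 tags were coding. Kif5a had 44.2% of 362 FMRP tags and 100% of 27 Hu tags past its coding length, and Kif21b 26.0% of 77 and 100% of 22. Kif5c had 50% of 160 FMRP tags and 95.4% of 87 Hu tags there, and Kif3c 29.0% of 31 and 97.3% of 37. Kif1a had 12.5% of 447 FMRP tags and 7 of 8 Hu tags.

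Over the set, 77.8% (95% Wilson interval 69.4% to 84.4%) of the Hu tags at P11 and 81.7% (76.2% to 86.2%) at P13 lay past the coding length, beside 92.9% and 92.8% for all genes. With the Kif1b tags left aside, a step also chosen after the values were seen, the share was 93.8% of 65 tags (85.2% to 97.6%) at P11 and 94.9% of 138 (89.9% to 97.5%) at P13. For FMRP the set had 12.9% to 25.7% per library beside 16.8% to 30.9% for all genes. Kif1b had the lowest share of the kinesins with Hu: it gave 144 Hu tags, the most of the set, with 60.4% past its combined coding length. The densest Hu window in Kif1b, 6077 to 6176 nt, lay short of that length and held 30 of the 144 tags, 10 from P11 and 20 from P13, with 1 FMRP tag. Whether this window is coding in the transcript that carries the tags cannot be told from the combined length. In the plot along the transcript, FMRP tags of Kif1b thin out shortly before this Hu window.

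Hu tags of Kif21b were the most concentrated of the set. Between 5843 and 5942 nt lay 17 of its 22 Hu tags (77.3%), 13 from P11 and 4 from P13, with 3 FMRP tags in the same window. In Kif5c the densest Hu window (4221 to 4320 nt) held 15 of 87 tags, 5 from P11 and 10 from P13. In Kif5a the densest Hu window (5327 to 5426 nt) held 8 of 27 tags, all from P13. The windows of Kif1b, Kif21b and Kif5c therefore drew tags from both lysates, and that of Kif5a from 1.

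**Figure D4:**
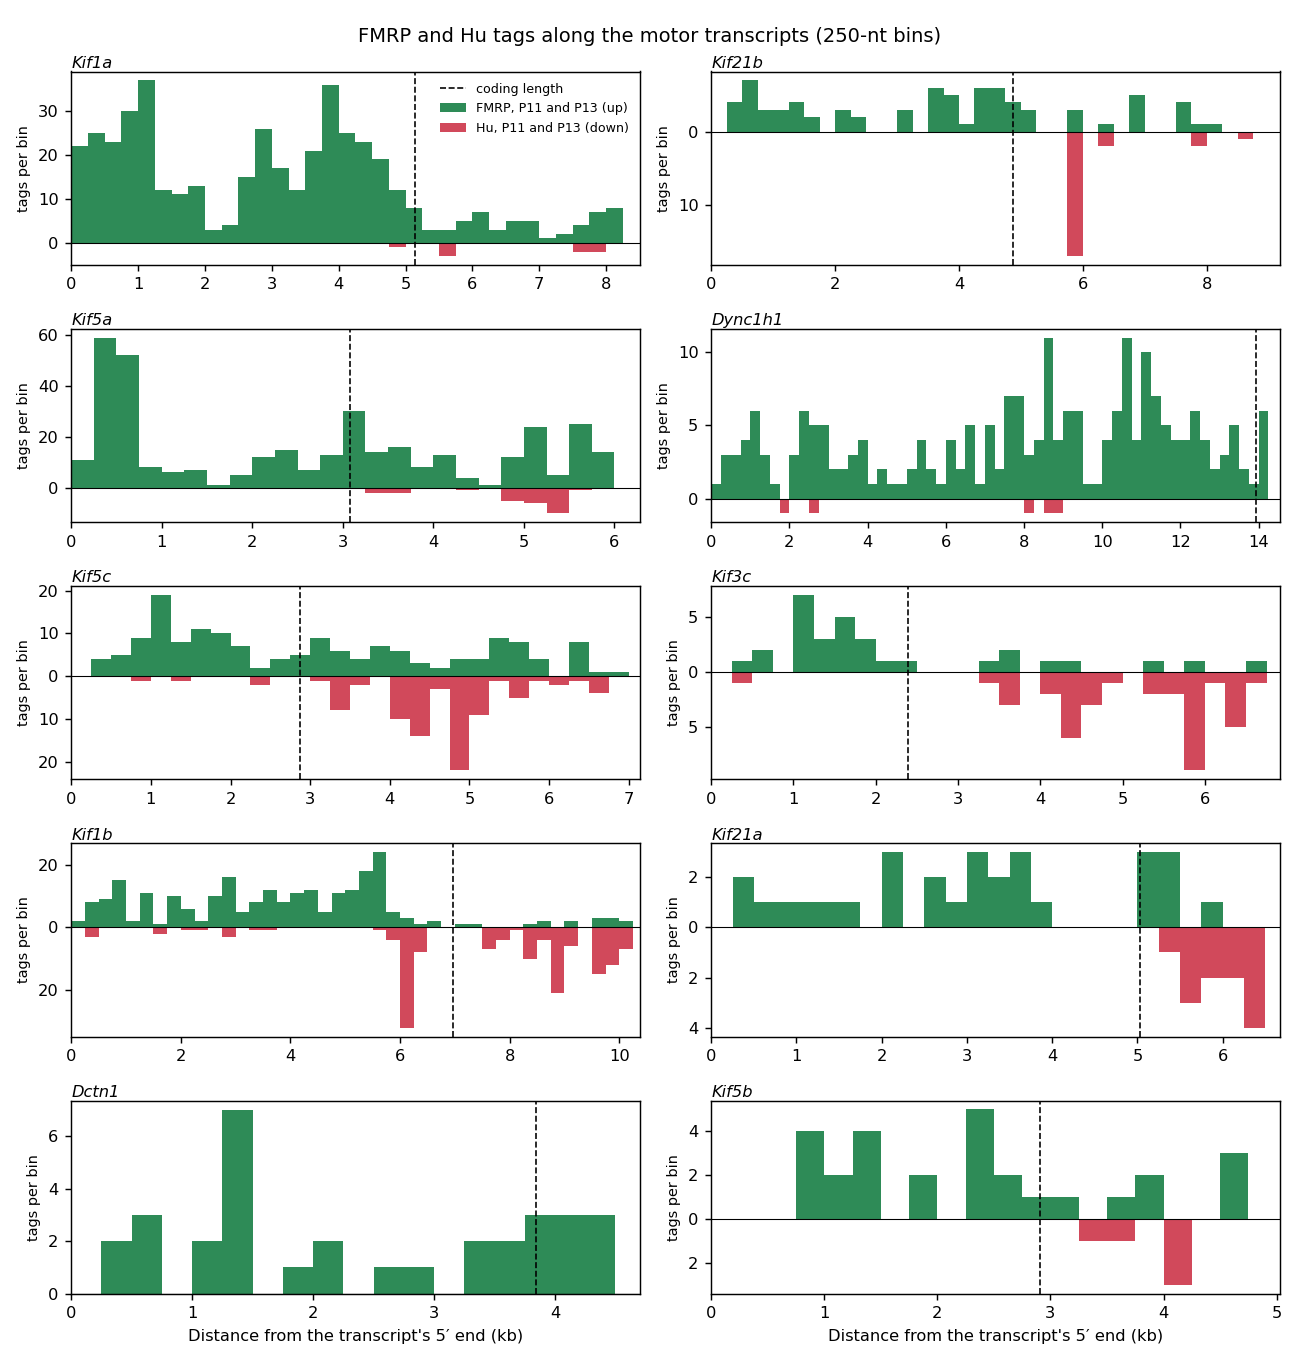
Tags per 250-nt bin along each motor transcript (kb from its 5′ end), with FMRP tags of the P11 and P13 libraries upwards and Hu tags downwards; the dashed line marks the coding length. FMRP tags fill most of the stretch before the line in Kif1a and Dync1h1, and thin out short of it in Kif1b. Hu tags gather past the line in Kif5a, Kif5c, Kif3c, Kif21a and Kif21b.

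The antibody, age and protocol comparisons asked whether the FMRP counts of the motors moved with how a library was made. Between the monoclonal and polyclonal antibodies of Protocol 1, 96 genes had enough tags to be tested and 0% passed with edgeR, with 4 at an unadjusted p under 0.05 and 0 passing with DESeq2. Of the motors, 4 could be tested and 0 passed with either tool, Kif1b alone having an unadjusted p under 0.05. Kif1a differed by 0.02 on the log2 scale (SE 0.34), Kif5a by -0.11 (SE 0.36), Kif21b by -0.20 (SE 0.68) and Kif1b by -0.68 (SE 0.34), lower with the monoclonal antibodies (edgeR adjusted p = 0.999 for each). The Kif1b values were 2235, 2033 and 3115 CPM with the monoclonal antibodies and 3316 and 4104 CPM with the polyclonal one. These did not overlap, and both polyclonal values lay above all 3 monoclonal ones in 5.21% of the 96 genes.

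Between P25 and the younger 454 libraries 1.04% of 96 genes passed as higher at P25, with 8 at an unadjusted p under 0.05. Of the 4 motors tested 0 passed, Kif5a alone having an unadjusted p under 0.05. Kif5a was higher at P25 by 0.65 (SE 0.31, edgeR adjusted p = 0.566), with 3595 and 2565 CPM at P25 against 2011, 1897 and 2595 CPM at P14 and P15. Kif1b was higher by 0.58 (SE 0.30, edgeR adjusted p = 0.610), Kif1a lower by -0.32 (SE 0.31, edgeR adjusted p = 0.756) and Kif21b lower by -1.19 (SE 0.72, edgeR adjusted p = 0.647). Kif21b was at 719 and 684 CPM at P25 and at 1220 to 2235 CPM in the 3 younger libraries. These did not overlap, nor did those of Kif1a, at 4433 and 5472 CPM at P25 and 5587 to 8537 CPM in the younger libraries. Both P25 values lay below all 3 younger ones in 16.7% of the 96 genes. The other 6 motors did not pass the filter on low counts in either comparison.

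Between the polyclonal libraries of Protocol 2 and Protocol 1, 334 genes were tested, 8.38% passed, 4.19% being higher in each protocol, and DESeq2 called 0. Protocol, platform and age cannot be told apart here. Of 7 motors tested, Dync1h1 was higher in Protocol 2 by 2.57 (SE 0.56, edgeR adjusted p = 0.0198). Its values were 3225 and 2533 CPM against 433 and 684 CPM, from 3 and 4 tags in the 454 libraries. DESeq2 gave the same 2.57 with an adjusted p of 0.217, and the call was lost without either 454 library.

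Kif5c was higher in Protocol 2 by 1.45 (SE 0.53, edgeR adjusted p = 0.106) and Kif5a by 0.68 (SE 0.48, edgeR adjusted p = 0.391). Without the P11 library they were at 1.76 and 1.33 (edgeR adjusted p = 0.00691 and 0.00117), in a fit that assumes the lone Protocol 2 library to vary like the 454 pair. Without the P13 library Kif5c was at 1.31 and Kif5a at -0.03, so the higher Kif5a value rests on P13. Dctn1 was lower by -1.24 (SE 0.51, edgeR adjusted p = 0.137), with 275 and 345 CPM against 865 and 855 CPM. Kif1a, Kif1b and Kif21b differed by 0.23, -0.03 and -0.13, with SEs of 0.44, 0.42 and 0.80.

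The P11 and P13 lysates differed for some motors. With 1 library per age and protein there is no test between ages, and the intervals cover counting error only. Kif21b had 0.159 times (0.0858 to 0.28) as many FMRP tags at P13 as at P11 after scaling to library totals, and 0.242 times (0.0835 to 0.631) as many Hu tags. Kif5a had 2.83 times (2.15 to 3.77) as many FMRP tags at P13, and 2.28 times (0.844 to 7.72) as many Hu tags. Kif21b was thus lower and Kif5a higher at P13 with both proteins, though the Hu interval of Kif5a includes 1.

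Kif1a had 0.680 times (0.562 to 0.823) as many FMRP tags at P13 as at P11, and 3.63 times (0.467 to 164) as many Hu tags, from 1 and 7. Kif5b had 0.304 times (0.12 to 0.713) as many FMRP tags at P13, from 18 and 9, and 2.08 times (0.205 to 102) as many Hu tags, from 1 and 4. Kif3c stood at 1.75 (0.755 to 4.52) with FMRP and 0.761 (0.377 to 1.58) with Hu. Kif1b (0.875 with FMRP, 0.918 with Hu), Kif5c (1.23 and 1.22) and Dync1h1 (0.773 with FMRP) had intervals that include 1. Kif21b was the motor farthest from 1 with FMRP.

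**Figure D5:**
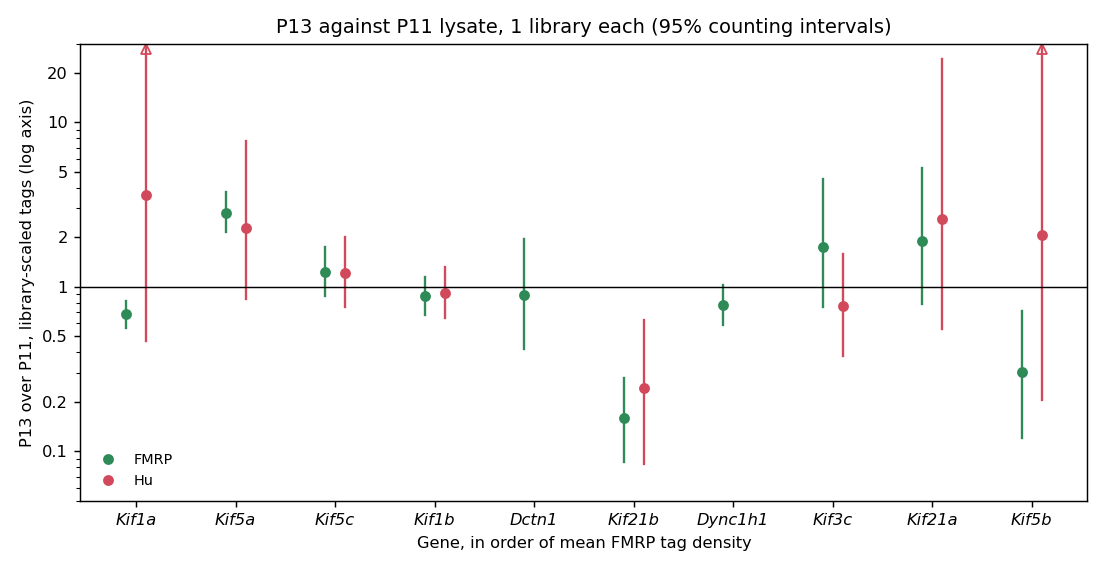
Ratio of library-scaled tags at P13 to P11 for each motor (log axis), FMRP in green and Hu in red, with 95% counting intervals; arrowheads mark intervals that run past the axis, and ratios with 0 tags at P11 are not drawn. Kif21b lies below 1 with both proteins (0.159 and 0.242) and Kif5a above 1 (2.83 and 2.28).

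Other genes of microtubule and actin transport were read from lists of their families. As with the motors, a gene could enter the test through its tags with 1 protein alone. Of 22 other kinesin heavy chains with a tag, 3 could be tested between FMRP and Hu and 1 passed: Kifc2, a minus-end directed kinesin of brain, had 14 and 22 FMRP tags against 0 and 2 Hu tags (log2 4.39, SE 0.83, edgeR adjusted p = 0.00313). Kif1c had 8 and 15 against 6 and 1 tags (1.98, SE 0.80, edgeR adjusted p = 0.0566), and Kif3a, the partner of Kif3c, 5 and 10 against 11 and 17 (-0.55, SE 0.59, edgeR adjusted p = 0.435). Kifc2 had too few Hu tags to meet the filter without its FMRP tags. The 22 genes together had 205 tags in the 7 FMRP libraries, fewer than Kif1b alone.

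Of 24 kinesin light chain and adaptor genes with a tag, 8 were tested, 5 were higher with FMRP and 1 with Hu, where 33.5% and 26.7% of all genes tested were. All 5 had too few Hu tags to meet the filter without their FMRP tags. The 1 higher with Hu had too few FMRP tags to meet it without its Hu tags. Neither count therefore stands for the rest of the list. Htt, the huntingtin scaffold, had 45 and 94 FMRP tags against 0 and 1 Hu tags (log2 7.13, SE 0.96). The JNK-interacting scaffolds Mapk8ip1 and Mapk8ip3, which link kinesin-1 to its cargo, had 23 and 35 against 1 and 0, and 23 and 25 against 0 and 1 tags (5.84 and 5.65). Madd, an adaptor of Kif1a and Kif1b, had 21 and 32 against 0 and 2 tags (4.96), and the mitochondrial adaptor Trak2 20 and 39 against 7 and 7 (2.33, SE 0.71, edgeR adjusted p = 0.0209). The gene higher with Hu was Arl8a, a small GTPase of lysosome transport, with 3 and 3 FMRP tags against 11 and 24 Hu tags (-2.10, SE 0.62, edgeR adjusted p = 0.0187). Its relative Arl8b, with 0 and 8 against 12 and 29 tags, did not pass (-1.96, SE 0.88, edgeR adjusted p = 0.0768).

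The other subunits of dynein and dynactin had values in both directions. Of 10 other cytoplasmic dynein subunits with a tag, the light chain Dynll2 alone could be tested and was higher with Hu, with 1 and 12 FMRP tags against 58 and 84 Hu tags (-3.17, SE 0.82, edgeR adjusted p = 0.0106). Of 11 other dynactin genes, Capza2, an actin-capping subunit, alone could be tested and was also higher with Hu, at 2 and 6 against 17 and 22 tags (-1.95, SE 0.69, edgeR adjusted p = 0.0354). Dynll2 and Capza2 had too few FMRP tags to meet the filter without their Hu tags, so neither call stands for the rest of its list. The dynein subunit list summed to 67 FMRP Illumina and 213 Hu tags, of which Dynll2 gave 13 and 142. Dync2h1, the heavy chain of ciliary dynein, had 16 and 10 FMRP tags against 0 and 1 Hu tags, and the light intermediate chain Dync1li2 had 8 and 10 against 5 and 7, too few to be tested. The dynactin list summed to 32 and 93.

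Of 11 dynein regulators and adaptors with a tag, 3 were tested, and Trak2, which is on this list too, was higher with FMRP. Spag9, a scaffold of the JNK-interacting family, had the most tags of that list, 22 and 40 against 9 and 25, and did not pass (1.28, SE 0.63, edgeR adjusted p = 0.103). Of 20 myosins with a tag, 5 were tested and 3 were higher with FMRP: Myo9a (log2 2.76), Myh10 (1.89) and Myo18a (4.10). Of all genes tested 33.5% were. These 3 had too few Hu tags to meet the filter without their FMRP tags. Myo5a, which moves cargo on actin, had the most tags of the myosins, 54 and 78 against 13 and 62 (1.34, SE 0.62, edgeR adjusted p = 0.0845), and Myo10 17 and 9 against 13 and 15 (0.26, SE 0.72, edgeR adjusted p = 0.762). The 8 axonemal dyneins with a tag, heavy chains of cilia, had 16 FMRP Illumina tags and no Hu tag between them, and none could be tested.

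Genes with a pattern over the 9 libraries like that of the 3 motors with most FMRP tags were sought among 774 genes with at least 50 tags. Likeness was the root mean square difference of log2 CPM after centring each gene, in which smaller is more alike. The genes most like Kif1a were Crebbp (0.343) and 2610507B11Rik (0.378), those most like Kif5a were Ogdh (0.511) and Ttc3 (0.516), and those most like Kif1b were Arhgap44 (0.278) and Scn8a (0.324). Crebbp had 146 FMRP and 1 Hu tags, and Arhgap44 57 and 31.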

How the data were processed

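Novoalign and mm9 are named, without a version, in the submitters' processing notes. FMRP tag counts for every gene, per transcript and per coding sequence, come from the gene table the authors deposited. The same table supplied lengths (per the file headers, congregated from all transcripts of a gene), gene bounds and an exon array intensity, which per the file headers is from another measurement. Kif5b has 2 lines there, which were summed. The authors also deposited tag lists on RefSeq transcripts and on the genome; each line was taken as 1 tag. The score beside each Illumina tag, as deposited by the authors, has no stated meaning and was not used. Since Hu has no column in the gene table, its comparison with FMRP rests on the transcript lists, and all other comparisons on the authors' counts.

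The test was edgeR's quasi-likelihood test (version 4.0.16, R 4.3.3; TMM factors, filterByExpr, Benjamini-Hochberg adjustment over all genes tested, threshold 0.05, two-sided). FMRP against Hu took the 4 Illumina libraries with group alone. Antibody took the 5 libraries of Protocol 1, age the same with antibody as a term, and protocol the 4 polyclonal FMRP libraries. Per the series text each Illumina lysate was split between both proteins, so the lysate pairs the samples. Over 1015 genes the P11 to P13 differences with FMRP and with Hu correlated at r = 0.12 (across genes, which are not independent). DESeq2 1.42.0, other scalings and filters, and leaving out each library were tried. The fitting code was tested on simulated counts. Python 3.11.15 ran numpy 2.4.6, scipy 1.17.1, pandas 2.3.3 and, for plots, matplotlib 3.10.9.

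A fold against 0 tags was computed against 3 tags over the group. Intervals for shares are 95% Wilson intervals, those for ratios exact conditional binomial ones, and both cover counting error only. The motors, gene lists, pairs and tests were chosen with earlier results of these data known. The share of tags past the coding length was chosen after the values were seen. All 10 motors are named; genes of other lists are named when past the threshold, or else only from the 5 with most tags, and the 2 most alike genes are named for 3 motors. Each motor had tags on 1 RefSeq transcript. Sequences of these transcripts were not used here.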

Additional observations from a re-analysis of the deposited data

Results flagged for a closer look

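Kif3c differed in direction between the lysates. Its log2 difference of FMRP over Hu (TMM-scaled, 0.5 tags added) was -0.78 in the P11 lysate, from 8 FMRP and 15 Hu tags, and 0.64 in the P13 lysate, from 23 and 22 tags. Each lysate is 1 library per protein, and this difference between lysates was not tested.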

How the results depend on the processing

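With the lysate as replicate block, 331 genes were higher with FMRP and 271 with Hu. Kif21b passed (log2 1.95), Kif3c turned to -0.017, and no other motor's call changed. Kif1a, Kif5a and Dync1h1 passed in the FMRP-Hu comparison under every alternative run, and Dctn1 in those where it had enough tags to be tested, which it had not without the P13 FMRP library or with genomic tags. Genes higher with Hu, 26.7% of 1015 in the main comparison, were 12.6% with DESeq2 and 155 of 10338 genes without a filter on low counts. With DESeq2 size factors in edgeR, 7 of the 8 motors were higher with FMRP, Kif1b (1.51) and Kif5c (1.61) among them. On that scale 37.6% of the 1015 genes were higher with FMRP and 23.4% with Hu, and the median of all genes was 0.21. All 7 FMRP libraries with a platform term left 202 genes, 82 higher with FMRP and 63 with Hu. There Kif1a was at 4.37, Kif5a at 2.09, Dync1h1 at 3.96 and Dctn1 at 5.75, and Kif1b and Kif5c turned to -0.70 and -0.63, while the median of all genes was 0.73. With that term the protein difference still rests on the Illumina libraries, while the genes kept and the scaling factors are others. Each motor tested there had a lower value than in the main fit. Which of these choices moved the values was not tested. Leaving out 1 library at a time gave 214 to 422 genes higher with FMRP and 84 to 282 with Hu; the lone library of a protein is then assumed to vary like the other pair. Kif3c turned to -0.26 with library totals and -0.095 without a filter, and ran from -0.39 to 0.81 with 1 library left out.

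In the antibody comparison no setting called any gene. Kif1a turned to -0.018 with coding counts and -0.026 with an age term, and Kif5a to 0.072 without a filter. With 1 library left out Kif1a ran from -0.27 to 0.25, Kif5a from -0.51 to 0.12 and Kif21b from -0.69 to 0.78. The 1 gene higher at P25 was lost, leaving 0, with DESeq2, library totals, no filter, coding counts, no antibody term or any library left out. Kif1a in that comparison ran from -0.70 to 0.056 with 1 library left out.

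In the protocol comparison, genes higher in Protocol 2 numbered 0 with DESeq2, 4 with library totals, 26 without a filter, 25 with coding counts and 1 to 18 with 1 library left out. Those higher in Protocol 1 numbered 0 with DESeq2, 0 without a filter and 0 to 2 with 1 library left out. Motors higher in Protocol 2 numbered 0 with DESeq2 and 0 to 3 with 1 library left out. Without a filter Kif1b turned to 0.65 and Kif21b to 0.51. With 1 library left out Kif1a ran from -0.049 to 0.59, Kif1b from -0.055 to 0.32, Kif5a from -0.030 to 1.33 and Kif21b from -1.78 to 1.03.

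For the pairs, Kif5a over Kif5c lost its call with coding tags per kb (0.92, exact permutation, adjusted p = 0.075). Kif21a against Kif21b ran from -1.88 to -1.24 with 1 library left out. It was past the threshold without P13, the only library of opposite sign, whose removal puts p at its minimum. The coding share of Kif21a ran from 89.7% to 100%, the latter without P13. Few tags limit Kif5b, Kif21a and Kif3c throughout, and 6 motors did not pass the filter on low counts for antibody and age; without that filter none of them passed either comparison. With the length of Kif1b taken to its last tag, Kif1a over Kif1b was 1.23 and kept its call.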

Other observations

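Tags placed anywhere within the mm9 gene bounds, introns and either strand included, were also counted. These counts are over the FMRP and Hu Illumina libraries. Kif1a had 369 FMRP and 12 Hu tags, Dync1h1 194 and 6, and Kif5a 275 and 26. Dctn1 had 22 and 1, so the 1 Hu tag within its bounds is not among its transcript tags. Kif5c had 149 and 90, Kif21b 63 and 18, and Kif3c 30 and 29. Kif5b had 21 and 8, and Kif21a 29 and 15.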
